A study of Homo sapiens with 5 samples.

Results

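The genes described here are 10 immediate-early genes, EGR1, JUN, JUNB, JUND, FOS, FOSL1, MYC, IER2, ZFP36 and ZFP36L1, in 5 RNA-seq libraries of HEK293 cells. They are 10 of the 24497 gene rows of the deposited count table and were found by their symbols. The set was chosen with a comparison of the same libraries in view, in which EGR1 and JUNB were higher in batch B than in batch A. The values behind that choice are edgeR quasi-likelihood adjusted p-values (Benjamini-Hochberg, 9215 genes tested) of 4.87e-10 for EGR1 and 0.0391 for JUNB. JUNB lies just inside the threshold of 0.05, and JUND, at an adjusted p of 0.301 in the same edgeR test, is the nearest of the other genes outside it. Because of this choice, the batch differences of these genes are given below as descriptions and support no conclusion.

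Immediate-early genes are transcribed within minutes of a growth factor, serum or stress signal, without new protein synthesis. The signal runs largely through receptor tyrosine kinases, RAS and the RAF, MEK and ERK kinases to the DNA-binding factors SRF, the ELK proteins and CREB, which sit on the promoters of these genes before the stimulus. Many of their transcripts are short-lived, in part because AU-rich elements in the 3' UTR recruit proteins that direct deadenylation and decay. EGR1, JUN, JUNB, JUND, FOS, FOSL1 and MYC encode DNA-binding transcription factors and IER2 a nuclear regulator, while ZFP36 and ZFP36L1 encode zinc finger proteins that bind AU-rich RNA.

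HEK293 is an established human line from embryonic kidney, transformed with adenovirus DNA, and the labels give growth in DMEM with glutamine and fetal calf serum, and no treatment in either batch. A lysate of 1000 cells was reverse transcribed with oligo-dT and template switching, and the product of 100 cells entered 18 cycles of PCR for each library, from which the 5' ends of transcripts were selected and read on an Ion Proton. The labels name 2 libraries of batch A and 3 of batch B, and whatever else differed between the batches cannot be told apart from batch. The libraries are named A2, A3, B1, B2 and B3 by batch and by the number that ends their column of counts, which in batch A is not the replicate number of the labels.

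The libraries held 373687 to 803168 gene counts, so that a gene with 0 counts may still have had up to 3.74 CPM (counts per 1000000 gene counts) in the deepest and 8.03 CPM in the shallowest, taking 3 counts as the limit. Spike-in RNA gave 1785 and 2127 counts in batch A and 1 to 19 in batch B. Of 11 HEK293 markers, 9 were expressed highly enough to be tested, such as VIM and NEFM, and the summed level of all 11 was 917 to 966 CPM in batch A and 1090 to 1180 CPM in batch B. Of the 9, only IGF2BP1 passed the edgeR test, with a log2 fold change of 0.60 (adjusted p 0.000783, and 0.140 without A2), and DESeq2 did not call it (0.211). Of 10 markers of other cell types, 7 were analysed and none passed the filter on low counts. Their summed level was 8.74 to 14.9 CPM in batch A and 16.1 to 22.6 CPM in batch B, with CD3E and ALB at 0 counts in every library. The part of marker levels, depth and spike-in recovery in the differences below was not tested, and in bulk RNA fewer cells of a type and less RNA per cell cannot be told apart. Nothing in the labels tells whether separate cultures were used, so the p-values reflect the spread among these libraries alone, possibly a technical one.

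EGR1, a zinc finger factor that binds GC-rich promoters, was the member with the most separate batches. Its level was 37.9 and 47.3 CPM in A2 and A3, and 128, 104 and 128 CPM in B1, B2 and B3. The lowest batch B library therefore had more than the highest batch A library, and their exact 95% Clopper-Pearson intervals, which cover counting error only, were 79.6 to 134 CPM and 33.5 to 64.9 CPM. The batch means were 42.6 ± 6.69 CPM (SD, n = 2) and 120.4 ± 14 CPM (SD, n = 3). The edgeR estimate was 2.83-fold, or a log2 fold change of 1.5 with a standard error of 0.21. Within batch B the highest EGR1 level was 1.23 times the lowest, beside a median ratio of 1.32 over 2167 tested genes of like mean count. Within batch A the ratio for EGR1 was 1.25, above the median of 1.15 for the same genes. The log2 fold change was 1.39 to 1.66 in 5 fits that each left out 1 library, with the lowest value without A2 and the highest without A3.

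The promoter of EGR1 is shown because EGR1 is the textbook target of SRF and its partners, and the other promoters below are to be read against it. The sequence comes from RefSeq on GRCh38.p14 and spans chr5:138465229-138465528 on the plus strand, from 250 bases before the transcription start to 50 bases after it. Capitals mark matches to the CArG box, the element that SRF binds, and to ACGTCA, the core of the cAMP response element that CREB binds.
EGR1: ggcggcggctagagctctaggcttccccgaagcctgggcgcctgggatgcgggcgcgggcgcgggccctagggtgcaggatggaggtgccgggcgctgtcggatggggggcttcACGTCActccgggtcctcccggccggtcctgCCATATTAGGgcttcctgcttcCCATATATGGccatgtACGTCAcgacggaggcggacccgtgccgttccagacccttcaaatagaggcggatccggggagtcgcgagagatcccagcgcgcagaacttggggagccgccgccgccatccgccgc
The CArG matches CCATATTAGG and CCATATATGG begin 105 and 83 bases before the start, and the ACGTCA matches begin 136 and 67 bases before it. A CArG match occurs in 1.29% of 35116 RefSeq promoters of this length. Of the 8 members with a promoter entry, only EGR1 has a match within this window. Bases further upstream were not searched, so a CArG box there would be missed in any member. ACGTCA occurs in 7.98% of these promoters and in 4 of the 8 members, EGR1, FOS, JUND and ZFP36L1. Both strands were searched, and a match is a description of the letters, not a site shown to be bound in these cells.

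**Figure D1:**
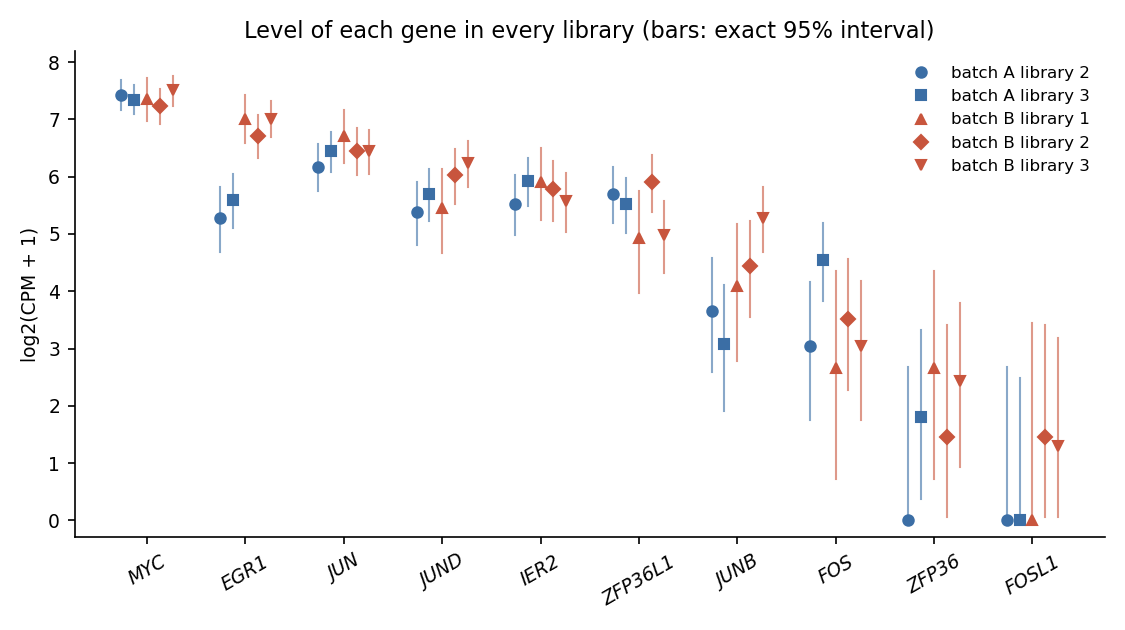
Level of each of the 10 genes in each library, as log2(CPM + 1), with 1 point per library (batch A blue, batch B red) and bars for the exact 95% interval of counting error. EGR1 and JUNB lie higher in every batch B library than in either batch A library, MYC is the highest gene in all 5 libraries, and FOSL1 and ZFP36 lie at or below a few CPM.

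The 3 JUN proteins form AP-1 with FOS proteins, ATF proteins or each other. JUN, the prototype of the family, was at 71.3 and 85.9 CPM in batch A and at 104, 86.9 and 86.1 CPM in batch B. Its batches did not overlap, but the highest batch A library and the lowest batch B library were almost level. The log2 fold change of JUN was 0.22 with a standard error of 0.19, and it stayed between 0.13 and 0.35 when any 1 library was left out.

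JUNB, which can act as a weaker activator than JUN or oppose it, was far lower and more scattered. It had 8 and 6 counts (A2, A3) and 6, 12 and 26 counts (B1 to B3), which is 11.7 and 7.47 CPM against 16.1, 20.9 and 38.0 CPM. Every batch B library was above both batch A libraries, and B3 stood above the rest. The means were 9.56 ± 2.95 CPM (SD, n = 2) and 24.9 ± 11.5 CPM (SD, n = 3). The log2 fold change was 1.5 with a standard error of 0.47, against 0.21 for EGR1 at the same estimate. Both standard errors rest on a spread pooled over genes of like abundance, so they do not measure the scatter of JUNB or EGR1 itself. Within batch B the highest JUNB level was 2.36 times the lowest, beside a median ratio of 1.79 over 2625 genes of like mean count. The value that placed JUNB in the set depended on single libraries and on the method. The edgeR adjusted p was 0.122 without A2, 0.382 without A3 and 0.406 without B3, with log2 fold changes of 1.84, 1.18 and 1.04. It was 0.123, with a log2 fold change of 1.28, once trends with GC content and length had been removed.

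JUND, the JUN protein that is expressed most steadily in resting cells, was at 40.8 and 51.1 CPM in batch A and at 42.8, 64.3 and 74.4 CPM in batch B, so that the batches overlapped. Its log2 fold change was 0.47 with a standard error of 0.24. It was 0.10 after removal of the trends with GC content and length, and the cause of that change was not tested.

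The JUNB and JUND promoters are shown because these genes belong to 1 family and differ in their matches. The JUNB sequence spans chr19:12791236-12791535 on the plus strand and the JUND sequence chr19:18281573-18281872 on the minus strand, both from RefSeq on GRCh38.p14 and both written 5' to 3' along the gene. Capitals mark TATAAA in JUNB, and TGACGTCA and ACGTCA, the full and the short cAMP response element, in JUND.
JUNB: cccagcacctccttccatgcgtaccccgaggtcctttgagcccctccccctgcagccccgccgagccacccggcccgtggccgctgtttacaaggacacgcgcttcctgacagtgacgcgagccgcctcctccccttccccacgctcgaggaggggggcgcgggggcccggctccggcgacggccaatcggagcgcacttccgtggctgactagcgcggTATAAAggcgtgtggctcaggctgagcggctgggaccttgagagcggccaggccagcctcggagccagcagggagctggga
JUND: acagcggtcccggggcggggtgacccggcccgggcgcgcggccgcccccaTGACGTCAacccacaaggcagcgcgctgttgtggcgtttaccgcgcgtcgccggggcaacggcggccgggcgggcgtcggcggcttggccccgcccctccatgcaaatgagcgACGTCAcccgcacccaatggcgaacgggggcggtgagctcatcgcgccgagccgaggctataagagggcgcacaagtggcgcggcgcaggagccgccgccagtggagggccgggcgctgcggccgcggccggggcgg
The TATAAA match of JUNB begins 31 bases before the start, and the other member with this match is FOS, 33 bases before its start. TATAAA occurs in 11.5% of the promoters. The full element TGACGTCA occurs in 1.85% of them, and in JUND, 200 bases before the start, and ZFP36L1, 52 bases before the start of its second listed promoter. It includes ACGTCA, so those sites count under both motifs. The AP-1 motif TGANTCA, found in 7.71% of promoters, matched in none of the 8 members, and the ETS motif CCGGAA, found in 17.3%, matched in IER2 alone, 26 bases before the start. The promoters of JUN and ZFP36 held none of these 6 motifs in the window. TATAAA and ACGTCA were added to the search after the data had been seen.

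The makeup of the JUN family followed from these levels. Of 497 counts of the 3 genes, JUN took 53.5%, JUND 34.8% and JUNB 11.7%. JUNB took 9.41% in A2, 5.17% in A3, 9.84% in B1, 12.1% in B2 and 19.1% in B3. Pooled, that was 14 of 201 counts in batch A (6.97%, exact 95% interval 3.86 to 11.4%) and 44 of 296 in batch B (14.9%, 11 to 19.4%). The intervals cover counting error only and do not hold the spread between libraries. JUN took its smallest share, 43.4%, in B3, where JUNB took its largest. The share of JUND ran from 26.2% in B1 to 37.5% in B3 and overlapped between batches.

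**Figure D2:**
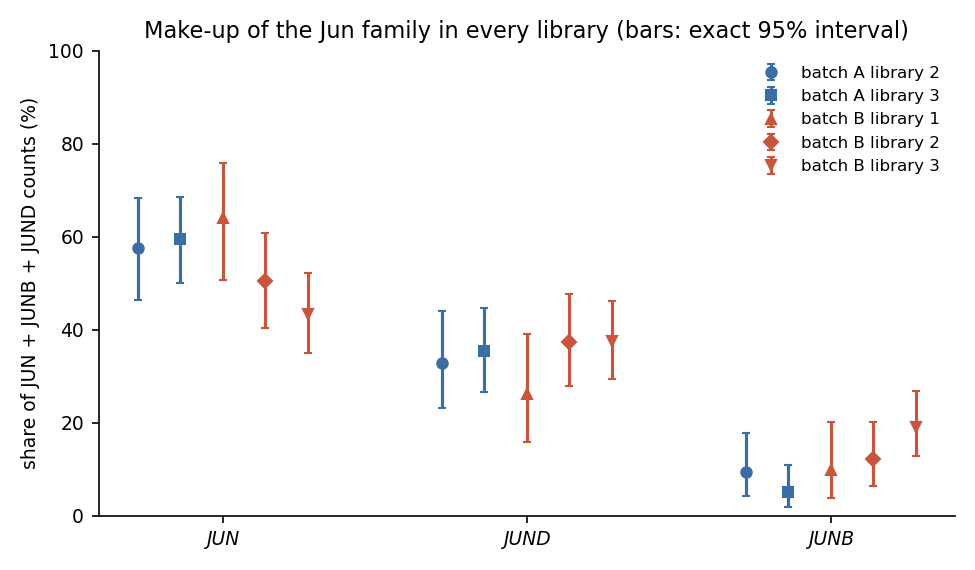
Share of JUN, JUNB and JUND in the counts of the 3 genes, in percent, for each library, with exact 95% intervals for counting error. JUNB is the smallest share in every library and reaches 19.1% in B3, against 5.17% in A3.

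FOS, the partner that makes the stable FOS and JUN dimer and is little transcribed in most resting cells, was near the limit of detection. It had 5 and 18 counts (A2, A3) and 2, 6 and 5 counts (B1 to B3), or 7.28 and 22.4 CPM against 5.35, 10.4 and 7.30 CPM. Only A3 stood above the others, and FOS did not pass the filter on low counts. FOSL1, a FOS relative that lacks the activating end of FOS, had 0 counts in both batch A libraries and in B1, and 1 count in each of the other 2. The whole FOS family, with FOSB and FOSL2, held 72 of the 569 counts of the FOS and JUN families, or 12.7% (10.0 to 15.7%). By library it was 9.57% in A2, 18.3% in A3, 10.3% in B1, 12.4% in B2 and 10.5% in B3. The pooled shares were 14.8% in batch A (10.6 to 20.0%) and 11.1% in batch B (7.95 to 15.0%), but without A3 batch A would be at the 9.57% of A2, so the order of the batches rested on A3.

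MYC, which drives growth and ribosome production, was the most abundant of the 10 genes and varied least over the 5 libraries among the 7 that passed the filter. It was at 172 and 162 CPM in batch A and at 163, 149 and 181 CPM in batch B, so that the batches overlapped fully. The means were 167 ± 7.02 CPM (SD, n = 2) and 165 ± 15.8 CPM (SD, n = 3), with a log2 fold change of 0.01 and a standard error of 0.14. Within batch B the highest MYC level was 1.21 times the lowest, beside a median of 1.22 over 1191 genes of like mean count. Its sign turned with the processing, from -0.13 to 0.09 over 13 alternatives.

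IER2 was at 45.1 and 59.8 CPM in batch A and at 58.9, 53.9 and 46.7 CPM in batch B. The batches overlapped, and the log2 fold change was 0.00 with a standard error of 0.25, between -0.17 and 0.21 over the same alternatives. These values rest on 22 to 48 counts per library, and the batches could not be told apart at this depth.

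ZFP36L1, which binds AU-rich elements and recruits deadenylases, was at 51.0 and 44.8 CPM in batch A and at 29.4, 59.1 and 30.7 CPM in batch B. B2 was the highest of all 5, and the other batch B libraries were the lowest. The log2 fold change of -0.22 had a standard error of 0.27, and it was -0.63 to 0.03 when 1 library was left out, where the lowest value came without B2 and the only positive one without B3. ZFP36, also known as tristetraprolin and itself an immediate-early gene, had 0 and 2 counts (A2, A3) and 2, 1 and 3 counts (B1 to B3). No library of ZFP36 exceeded the limit of 3 counts, and no fold change is given.

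**Figure D3:**
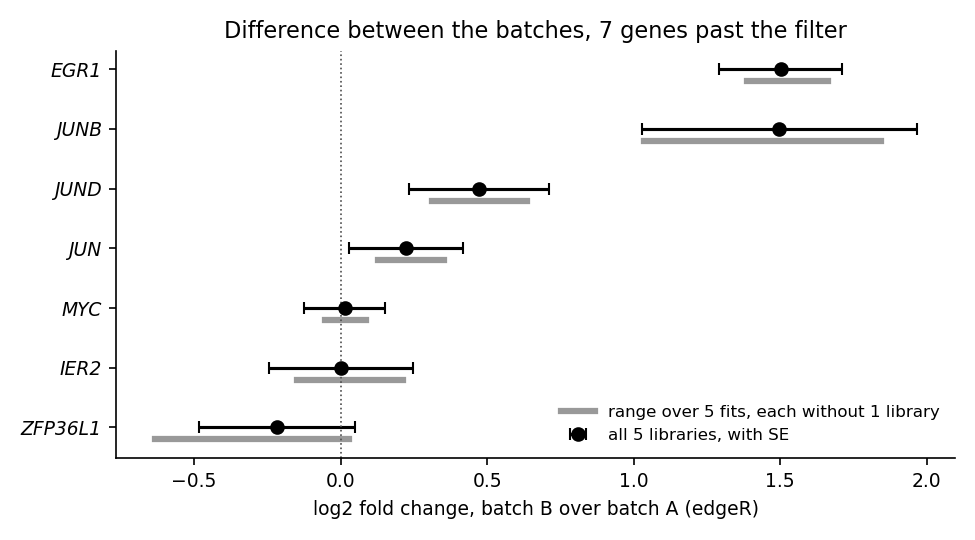
The log2 fold change of batch B over batch A for the 7 genes that passed the filter on low counts, with its standard error (black) and the range over 5 fits that each left out 1 library (gray). EGR1 and JUNB share an estimate of 1.5 with errors of 0.21 and 0.47, and the other 5 lie between -0.22 and 0.47.

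Of the 10 genes, 7 passed the filter on low counts, and FOS, FOSL1 and ZFP36 did not. EGR1 and JUNB are the 2 called genes, both higher in batch B. Over all genes tested, 4.2% were called in either direction, 2.15% higher and 2.05% lower in batch B. The libraries of the batches did not overlap for EGR1, JUNB and JUN, against 31.3% of all tested genes in either direction and 13.5% in the direction of higher in batch B. The choice of the members fixes the first count and, through EGR1 and JUNB, most of the second, so nothing is read from either. The 10 genes together held 437 and 483 CPM in batch A and 554, 553 and 598 CPM in batch B. Without EGR1 the sum was 399 and 436 CPM against 426, 448 and 470 CPM, and the batches then overlapped. EGR1 made up 8.67% and 9.79% of the members' counts in batch A and 18.9 to 23.2% in batch B, while the share of MYC ran from 27.0 to 30.2% in batch B and was 39.3% and 33.5% in batch A.

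By mean CPM the order was MYC (165.5), EGR1 (89.3), JUN (86.9), JUND (54.7), IER2 (52.9), ZFP36L1 (43.0), JUNB (18.8), FOS (10.6), ZFP36 (2.79) and FOSL1 (0.639). Only MYC and EGR1, among neighbors in that order, had library ranges that did not overlap. EGR1 was above JUN in 3 of 5 libraries, those of batch B, and below it in both libraries of batch A. JUN was above JUND in 5 of 5 libraries, though their ranges overlap, and JUND was above IER2 in 2. Divided by transcript length, MYC stayed first at 69.9 CPM per kb, and JUND (29.4), EGR1 (28.5) and JUN (24.6) followed. The libraries hold 5' ends, whose counts need not scale with transcript length, so the order between genes is approximate on either scale. Among the 9215 genes tested, MYC stood at percentile 86.7 by mean CPM, EGR1 at 74.0, JUN at 73.2 and JUNB at 14.9.

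The genes upstream were described from lists of pathway genes. Of 29 growth factor receptors and members of the MAP kinase cascade, 26 were tested, 2 rose, none fell, and the median log2 fold change was 0.20, beside 0.00 over all genes tested. ARAF, a RAF kinase, rose from 38.4 ± 9.05 CPM (SD, n = 2) to 67.8 ± 7.52 CPM (SD, n = 3), with a log2 fold change of 0.83, a standard error of 0.25 and an edgeR adjusted p of 0.0268. MAP2K2, the kinase of ERK also known as MEK2, rose from 118 ± 19.2 CPM (SD, n = 2) to 172 ± 10.9 CPM (SD, n = 3), with a log2 fold change of 0.54 and an edgeR adjusted p of 0.0139. The ARAF call was lost without A2 (edgeR adjusted p 0.314), A3 (0.0522) or B2 (0.175), with log2 fold changes of 0.65, 1.08 and 0.72, and after removal of the trends with GC content and length (0.0718, log2 fold change 0.74). The MAP2K2 call was lost without A2 (edgeR adjusted p 0.297), and after the same removal of trends, where its log2 fold change was 0.30 (adjusted p 0.312).

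Of 16 genes for SRF, CREB and their cofactors, 14 were tested and 1 rose, and the median was 0.07 on the log2 scale. It was ELK1, the ETS factor that joins SRF on the promoters of immediate-early genes once ERK has phosphorylated it. ELK1 had 17 and 20 counts (A2, A3) and 12, 33 and 35 counts (B1 to B3), a rise from 24.8 to 46.9 CPM with a log2 fold change of 0.99, a standard error of 0.30 and an edgeR adjusted p of 0.0351. ELK1 passed in 1 of the 5 fits without a library, that without B1, and its edgeR adjusted p was 0.162 and 0.212 without A2 and A3, and 0.221 and 0.112 without B2 and B3. It was 0.0633 in the edgeR fit with the trends with GC content and length removed. SRF itself, named after its values were seen, had means of 77.5 CPM (batch A) and 96.5 CPM (batch B), with a log2 fold change of 0.30 that did not pass the test. The largest estimate of the list in size, also chosen after its values were seen, was that of CREM, which encodes activators and repressors at cAMP response elements. CREM had 24 and 30 counts (A2, A3) and 4, 8 and 17 counts (B1 to B3). Its log2 fold change was -1.01 with a standard error of 0.37 and an edgeR adjusted p of 0.0979. CREM passed when B3 was left out (-1.46, edgeR adjusted p 0.0462), but not without B1 (-0.86, 0.224) or B2 (-0.86, 0.290). Its estimates were -1.03 without A2 and -0.98 without A3. ELK4 and CRTC3, likewise chosen after their values were seen, also had negative estimates, -0.86 and -0.82, that did not pass.

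Among 18 other immediate-early transcription regulators, 7 were tested and 1 rose, HES1, a repressor best known as a target of Notch. HES1 had 187 and 241 counts (A2, A3) and 166, 258 and 259 counts (B1 to B3), or 286 ± 19.7 CPM (SD, n = 2) against 424 ± 39.5 CPM (SD, n = 3). Its log2 fold change was 0.57 with a standard error of 0.11 and an edgeR adjusted p of 3.39e-05, and it kept its call whichever library was left out. The median of this list was 0.05. Of 14 other AP-1 genes, 6 were tested, and 0 of these had an unadjusted p under 0.05 in edgeR, beside 1514 of all 9215 genes tested. None of the 6 was called by edgeR, DESeq2 or limma-voom, and their median log2 fold change was 0.24. The most abundant were MAF, with means of 36.9 CPM (batch A) and 52.1 CPM (batch B) (log2 fold change 0.52, standard error 0.27), and ATF2, at 29.8 and 37.5 CPM (0.39, standard error 0.31).

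A list of 26 other immediate-early genes, which holds secreted factors, phosphatases, kinases and growth arrest genes among others, had 14 tested members. None was called by edgeR, DESeq2 or limma-voom, and the median log2 fold change was 0.21, with 11 estimates above 0 and 3 below. In edgeR, 3 of the 14 had an unadjusted p under 0.05, beside 1514 of all 9215 genes tested. ODC1, the rate-limiting enzyme of polyamine synthesis, had means of 330.3 and 376 CPM (log2 fold change 0.22, standard error 0.11). BTG1, an antiproliferative gene, was at 78.2 and 97.0 CPM (0.35, standard error 0.19). The largest estimate of the list, chosen after its values were seen, was that of PPP1R15A, also known as GADD34, at 1.31 with a standard error of 0.55 and an edgeR adjusted p of 0.183.

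The next lists are targets of ERK that feed back on it and partners and targets of MYC. Of 12 ERK feedback targets, 4 were tested and none was called by edgeR, DESeq2 or limma-voom, with 1 at an unadjusted p under 0.05 in edgeR and a median of -0.08. ETV5, a member of this list below the filter on low counts, was chosen after its values were seen. It was called in the edgeR fit without that filter (adjusted p 0.0255). SPRY1, which restrains RAS signaling, had batch means of 43.5 and 55.8 CPM, and DUSP7, a phosphatase of ERK, was at 33.5 and 14.3 CPM, with a log2 fold change of -1.04, a standard error of 0.39 and an edgeR adjusted p of 0.111. Of 19 genes of the MYC network, 15 were tested and none was called by edgeR, DESeq2 or limma-voom, with 2 at an unadjusted p under 0.05 in edgeR and a median of 0.04. Over all 9215 genes tested, 1514 had an unadjusted p under 0.05 in edgeR. RUVBL1 and RUVBL2, helicases that act with MYC, were at 328 and 232 CPM in batch A and at 299 and 279.9 CPM in batch B.

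The list of AU-rich element binding and deadenylation genes had 28 members, of which 27 were tested, 1 rose and 1 fell, with a median of 0.03. KHSRP, which promotes decay of AU-rich transcripts, rose from 242 ± 15.0 CPM (SD, n = 2) to 339 ± 31.5 CPM (SD, n = 3), with a log2 fold change of 0.49 and an edgeR adjusted p of 0.00208. RQCD1, a subunit of the CCR4-NOT deadenylase now named CNOT9, fell from 134 ± 8.15 CPM (SD, n = 2) to 88.5 ± 9.07 CPM (SD, n = 3), with a log2 fold change of -0.59 and an edgeR adjusted p of 0.0189. The KHSRP call was lost without A2 (edgeR adjusted p 0.0861). The RQCD1 call was lost without A2 (0.253), A3 (0.0694), B2 (0.0973) or B3 (0.121). ZFP36 and ZFP36L1, the members of this class among the 10 genes, are given above.

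Heat shock genes are induced by stresses that also induce immediate-early genes. Of 9 such genes, 8 were tested, 2 rose and 6 were not called by edgeR, with a median of 0.12. The 6, named after their values were seen, had small or mixed estimates. The log2 fold changes were 0.12 for HSPA1B and DNAJB1, 0.10 for HSPH1, 0.57 for BAG3, -0.11 for HSF1 and -0.25 for HSPA8. HSPB1, a small heat shock protein, rose from 243 ± 6.37 CPM (SD, n = 2) to 355 ± 18.0 CPM (SD, n = 3), with a log2 fold change of 0.58, a standard error of 0.11 and an edgeR adjusted p of 7.52e-05, and it kept its call whichever library was left out. HSP90AA1, the inducible cytosolic HSP90, rose from 1288 to 1670 CPM, a log2 fold change of 0.40 (edgeR adjusted p 0.0247), but the call was lost without A2 (0.180), A3 (0.316), B1 (0.0844) or B2 (0.162). Over all 9 lists, 121 genes were tested, of which 7 rose and 1 fell. That is 6.61% called beside 4.2% over all genes tested, and the median of 0.12 stands beside 0.00. DESeq2 called none of the 8. Over 13 alternatives in all, HES1 and HSPB1 were called in 12, KHSRP in 10, MAP2K2 in 8, ARAF, RQCD1 and HSP90AA1 in 7 and ELK1 in 5.

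**Figure D4:**
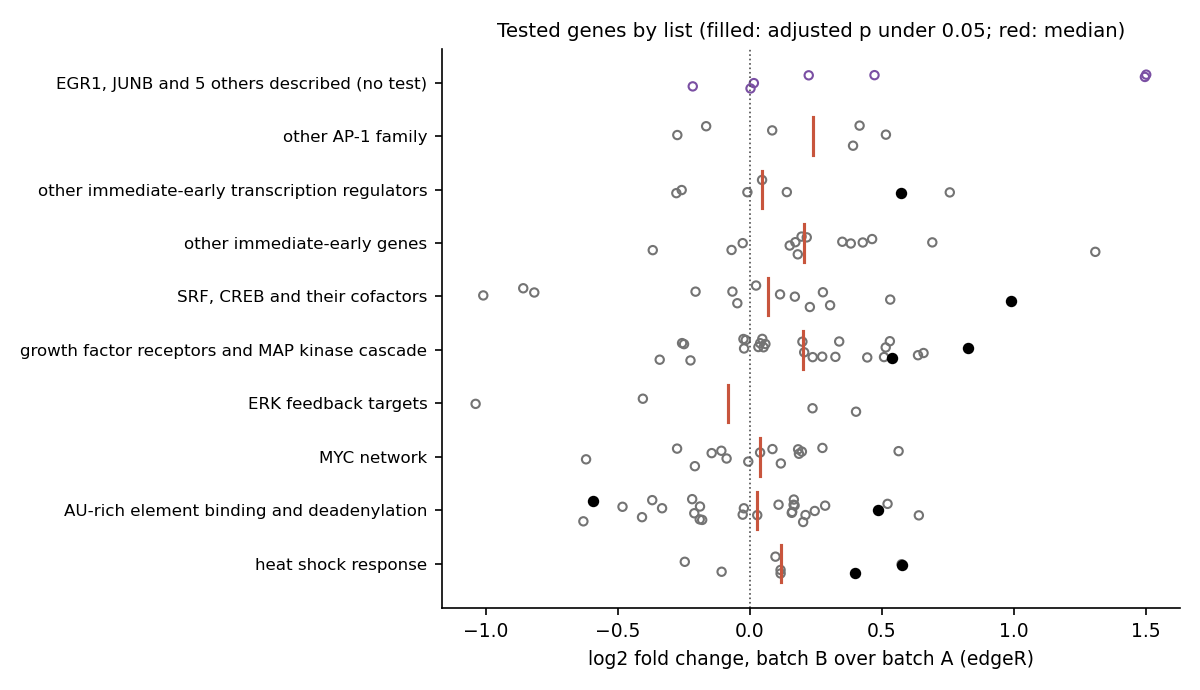
Log2 fold change of batch B over batch A for each tested gene of the 9 pathway lists, with the 7 tested immediate-early genes described without a test in the top line. Filled points passed an edgeR adjusted p of 0.05 and red bars are the medians of the 9 lists, which run from -0.08 to 0.24.

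The genes whose profile over the 5 libraries was most like that of EGR1 were found among 9214 other tested genes by the smallest root mean square difference of log2(CPM + 1) values centered on their mean. They were MTND1P23 (0.128), RP5-857K21.7 (0.182), WDR81 (0.188), C1QL1 (0.195) and MT-TM (0.203). WDR81 and C1QL1 had only 3 to 10 counts per library, and they fell to ranks 16 and 19 with a pseudocount of 5 CPM. MTND1P23 is annotated as an unprocessed pseudogene, and its mean went from 10.6 CPM (batch A) to 29.4 CPM (batch B). MT-TM is the mitochondrial tRNA for methionine, with means of 13.4 and 44.1 CPM. Reads of such a pseudogene and of the mitochondrial genome may be shared between rows, so its value is uncertain. For JUNB the nearest were C6orf47 (0.192), RFTN1 (0.205), RLF (0.239), JOSD2 (0.249) and TRIM68 (0.292), all with 3 to 23 counts per library. JUNB was not among the genes nearest to EGR1: the difference between their profiles was 0.486, rank 376 of 9214. With a pseudocount of 5 CPM, 3 of the 5 genes nearest to EGR1 and 4 of the 5 nearest to JUNB stayed among the first 5. The profiles share libraries and depth, and likeness over 5 libraries is a description of the counts alone.

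**Figure D5:**
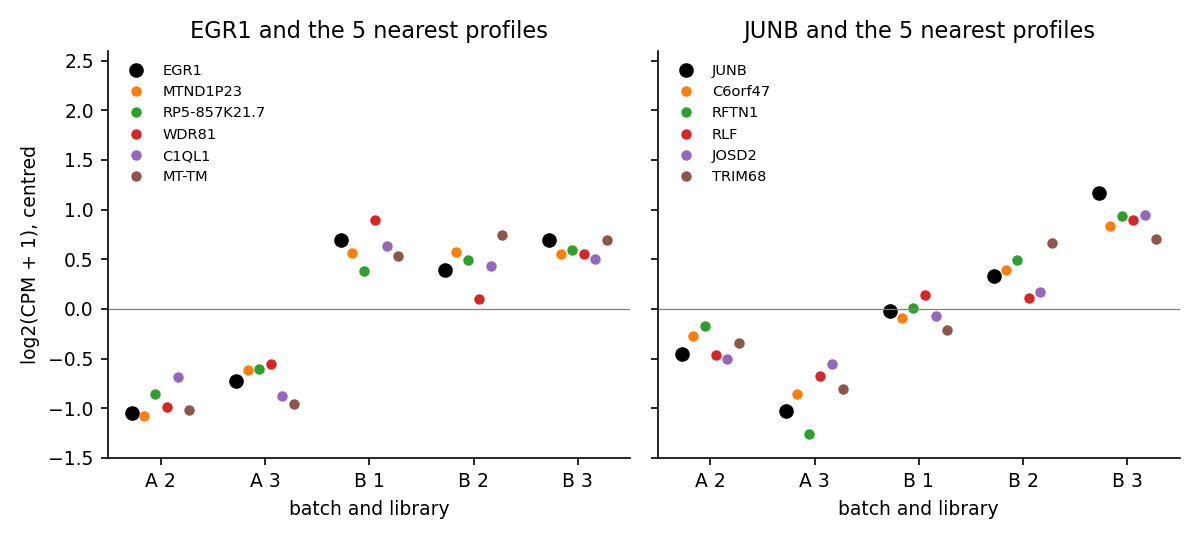
Profiles of EGR1 (left) and JUNB (right) with the 5 nearest genes each, as log2(CPM + 1) centered on the mean over the 5 libraries, with 1 point per gene and library. EGR1 and its neighbors lie below 0 in both batch A libraries and above 0 in all batch B libraries, whereas JUNB and its neighbors lie near 0 in B1 and highest in B3.

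Sequence features of the 10 genes, which the choice did not use, are given next. JUN, JUNB, JUND and IER2 have 1 exon, as do 1.42% of the tested protein-coding genes, and all 10 have a transcript GC content above the median of 48.0%, from 49.5% in ZFP36L1 to 69.7% in JUND. In GENCODE release 29, 9 of the 10 have at least 1 ATTTA, the core of the AU-rich element, in the 3' UTR, beside 72.2% of 8334 tested protein-coding genes. IER2 has none. The density was 8.40 per kb in MYC, 7.01 in ZFP36, 6.20 in FOS, 4.28 in ZFP36L1 and 4.00 in JUNB, against a median of 1.76, and it was 0.81 in EGR1. The longer element TTATTTATT occurred in FOS, ZFP36 and ZFP36L1, beside 8.62% of the tested genes, and both elements were added to the search after the data had been seen.

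The sites with the most ATTTA in 30 bases of the 3' UTR are shown for the ZFP36 proteins and FOS, with EGR1 and JUNB for comparison, since ZFP36 and ZFP36L1 bind this element. They are from GENCODE 29 on GRCh38, at chr14:75282057-75282086 (FOS, plus strand), chr19:39409188-39409217 (ZFP36, plus strand), chr14:68788345-68788374 (ZFP36L1, minus strand), chr5:138469063-138469092 (EGR1, plus strand) and chr19:12793059-12793088 (JUNB, plus strand). Capitals mark ATTTA.
FOS: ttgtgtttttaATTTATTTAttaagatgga
ZFP36: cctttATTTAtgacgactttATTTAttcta
ZFP36L1: cttATTTAacttatcaaaacgtATTTAttg
EGR1: actgaaaatgtaaATTTAtaaatatattca
JUNB: aatatatttgtgtATTTAacagggagggga
FOS, ZFP36 and ZFP36L1 have 2 matches within the window, which overlap in FOS, and EGR1 and JUNB have 1. The density of ATTTA did not order the genes by level: MYC had both the highest density and the highest level, while ZFP36 and FOS had the next densities and were among the 3 lowest in level.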

How the data were processed

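The deposited table gives whole-number counts per gene and library, with no normalization by the authors. The tools named per the submitters' processing notes are STAR 2.4.0a and cutadapt 1.2.1, and the builds GRCh37 and hg19. Neither the counting of reads, the collapsing of molecular identifiers, the annotation nor the use of strand is given in the sources used here, so antisense or overlapping genes may share reads with a row. Of 24549 rows, 52 spike-ins were left out of totals. Columns were assigned to batches by the start of their names, which they share with the sample titles, and 0 columns were left unused.

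The members, gene lists and tests were chosen with earlier results of these data known. Batch B was compared with batch A in edgeR 4.0.16 (R 4.3.3) with TMM scaling, filterByExpr and the quasi-likelihood F test, with Benjamini-Hochberg adjustment over the 9215 genes left, which hold 97.1% of gene counts. The common biological coefficient of variation was 6.50%, and the prior degrees of freedom were infinite, so the spread is pooled over genes of like abundance. The standard error of a log2 fold change is its size over the root of the F statistic. Genes of like mean count have 0.67 to 1.5 times that of the gene. Named are all 10 members, up to 3 called genes per list by smallest adjusted p or, with none called, the 2 of highest mean CPM, and the 5 nearest profiles of EGR1 and of JUNB. Any other gene, apart from the cell type markers and the FOS family, is said to be chosen after its values were seen.

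Alternatives were DESeq2 1.42.0 (Wald test and size factors), limma-voom 3.58.1, library totals, a mean count of at least 20, no filter, thinning to the smallest library (1 seeded draw), removal of GC and length trends (values for 93.5% of tested genes) and leaving out each library. Promoters are RefSeq sequences, and transcripts, lengths and 3' UTRs are from GENCODE 29, both on GRCh38, matched by gene symbol. They are on another build than the counts, so no coordinate is taken from the counts. Of the 10 members, 8 matched a promoter entry, ZFP36L1 with 2, and FOSL1 and MYC did not.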

Additional observations from a re-analysis of the deposited data

How the results depend on the processing

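EGR1 and JUNB were chosen for their values in these libraries, so other fits of the same counts describe them and give no further support. EGR1 kept its direction in all 13 alternatives, with log2 fold changes of 1.39 to 1.66. Its adjusted p in the DESeq2 Wald test was 2.95e-04. JUNB kept its direction in the 11 alternatives that tested it, with log2 fold changes of 1.04 to 1.84. It passed in 4 and missed in 6, among them limma-voom (adjusted p 0.0762) and the unfiltered edgeR fit (adjusted p 0.0612), and DESeq2 gave it no adjusted p. JUN and JUND kept a positive sign in all 13, whereas IER2, MYC and ZFP36L1 changed sign in 1 or more. Genes called numbered 387 in the edgeR test, 41 in the DESeq2 Wald test, 181 after thinning and 138 to 333 without 1 library (138 without A2, 152 without A3, 202 without B2). Library totals gave 178 higher and 232 lower calls, against 198 and 189 with TMM. Of the pathway lists, 8 genes were called, 0 by DESeq2, 5 after removal of GC and length trends, 3 after thinning and 2 to 7 without 1 library (2 without A2). The causes of these changes were not tested beyond the smaller number of libraries or counts. No paired analysis was possible because the labels state no link between a library of batch A and one of batch B. The batch A columns also end in numbers that are not the replicate numbers of the labels. Depth limits FOS, FOSL1, ZFP36 and JUNB most, with 36, 2, 8 and 58 counts over all 5 libraries.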

Other observations

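Some genes of the pathway lists that were too low for the main test had counts that lay mostly in 1 batch, and those given here were chosen after their values were seen. ETV5, an ETS factor on the list of ERK feedback targets, had 0 counts in both batch A libraries and 3, 7 and 4 counts in batch B. Against a limit of 3 counts over batch A, its pooled level of 8.57 CPM in batch B is 4.25-fold higher. That ratio leaves out the counting error of batch B, so it is not a lower bound. The edgeR adjusted p of ETV5 without a filter on low counts was 0.0255. MYCL, a relative of MYC on the list of its network, had 5 and 4 counts (A2, A3) and 0, 0 and 1 (B1 to B3), with an edgeR adjusted p of 0.383 in the same fit. HBEGF, an EGF receptor ligand, had 7 counts in each batch A library and 1, 2 and 2 in batch B (edgeR adjusted p 0.52). BHLHE40, a repressor, had 3 and 2 counts against 2, 8 and 8, and FOSB, a partner of JUN, had 1 and 2 against 1, 4 and 7. Neither passed that edgeR test, with adjusted p-values of 0.404 and 0.588.

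Batch A library 3, which held the highest FOS level, also held the highest levels of ATF3 and PLK3, both stress-induced immediate-early genes. ATF3 was at 44.8 CPM there, 18.9 CPM in A2 and 16.1 to 36.5 CPM in batch B. PLK3 had 9 counts there, 0 in A2 and 0, 1 and 2 in batch B. EGR1 and JUNB were not high in that library, at 47.3 and 7.47 CPM. PPP1R15A and IER3, on the same list as PLK3, had their lowest levels there, at 4.98 and 11.2 CPM. ATF3, PLK3, PPP1R15A and IER3 were all named after their values were seen, and how many listed genes went each way was not counted.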
